A study of Mus musculus with 6 samples.

Results

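Keratan sulfate is the sulfated glycosaminoglycan for which the cornea is best known, and 10 genes that build its chain and supply its sulfate were followed here in corneas of mice heterozygous for a Pax6 mutation. The genes were chosen by name for their role in keratan sulfate synthesis: B3gnt7, B3gnt2, B4galt1, B4galt4, Chst1, Chst2, Chst5, Slc26a2, Papss1 and Papss2. Earlier results of these data were known when they were chosen. All 10 names matched 1 gene each among the 55421 genes counted in every library. RNA-seq libraries came from corneas of wildtype mice (W1 to W3) and of heterozygous Pax6 mutants (M1 to M3), all aged 20 weeks, with 3 libraries per genotype. The labels name neither the mutant allele nor strain or sex, and no treatment. The submitters call the libraries of a genotype biological replicates. A library mixes the RNA of whatever corneal layers were harvested, so fewer cells of a type and less RNA per cell cannot be told apart in any value below.

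Keratan sulfate is a chain of alternating galactose and N-acetylglucosamine residues carried by small leucine-rich proteoglycans such as lumican and keratocan, which space the collagen fibrils of the corneal stroma. B3gnt enzymes add N-acetylglucosamine and B4galt enzymes add galactose in turn, while Chst enzymes of the Golgi attach sulfate to the growing chain. The sulfate comes from PAPS, an activated sulfate that the Papss synthases make from sulfate brought into the cell by transporters such as Slc26a2. In humans, loss of the corneal N-acetylglucosamine sulfotransferase CHST6, whose role in mouse is taken by Chst5, causes macular corneal dystrophy.

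Of the 10 genes, B3gnt7 and B4galt1 rose and Papss2 fell in mutant corneas. The difference of 6 others did not pass the threshold, an adjusted p under 0.05 (Benjamini-Hochberg, over all genes tested) in edgeR's quasi-likelihood test, and Chst1 had too few counts to be tested. Among all 15209 genes tested, 5.59% were called higher and 4.46% lower. The genotypes did not overlap for 5 of the 9 tested members and for 31.9% of all genes tested. The median log2 fold change (mutant minus wildtype) of the 9 was 0.58, beside 0.0095 for all genes tested. Pax6 itself, the check of the labels, stood at 401 ± 49.1 CPM in mutant and 790 ± 53.5 CPM in wildtype corneas (SD, n = 3 each), where CPM is the usual library-size-scaled count (edgeR's cpm, with TMM factors).

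The libraries held 16858005 to 21846406 counts in genes. W1 stood apart from the other wildtype libraries: the chi-square of its counts per degree of freedom, which is 1 for sampling noise alone, was 58.9 against W2 and 61.5 against W3, and 22.9 between W2 and W3. Among mutant libraries it was 28.3 for M1 and M2, 30.3 for M1 and M3, and 19.9 for M2 and M3. The summed vascular and lymphatic endothelial markers (9 genes) of W1 were 3.35 CPM, with 3 of the 9 at 0, beside 39.9 and 46.4 CPM in W2 and W3 and 56.5 to 142 CPM in mutant libraries. Among the 10 genes, only Slc26a2 changed its call without W1, and the value of Slc26a2 without W1 is given below.

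The bases just before the start sites of the 3 genes that passed the test are shown so that their regulatory sequence can be read beside their values. Each window holds the 250 bases before a RefSeq start on GRCm38.p6, written 5′ to 3′ on the gene's strand. They lie at chr1:86302971-86303220 (plus strand) for B3gnt7, at chr4:40853985-40854234 (minus strand) for B4galt1, and at chr19:32595465-32595714 and chr19:32619755-32620004 (plus strand) for the upstream and the downstream start of Papss2. Capitals mark the GC box GGGCGG, a site bound by Sp1-type factors, and the E-box CACGTG, on either strand.
B3gnt7: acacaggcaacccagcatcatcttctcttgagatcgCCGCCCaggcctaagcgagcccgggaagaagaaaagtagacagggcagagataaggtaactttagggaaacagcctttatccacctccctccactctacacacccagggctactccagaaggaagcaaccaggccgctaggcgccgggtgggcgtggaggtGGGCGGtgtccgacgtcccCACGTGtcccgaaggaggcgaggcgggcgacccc
B4galt1: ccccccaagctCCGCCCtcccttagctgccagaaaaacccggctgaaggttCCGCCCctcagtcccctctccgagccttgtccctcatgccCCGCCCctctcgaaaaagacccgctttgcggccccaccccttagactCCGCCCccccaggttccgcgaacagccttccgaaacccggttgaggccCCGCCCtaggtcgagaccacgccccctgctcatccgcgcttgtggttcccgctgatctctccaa
Papss2 upstream start: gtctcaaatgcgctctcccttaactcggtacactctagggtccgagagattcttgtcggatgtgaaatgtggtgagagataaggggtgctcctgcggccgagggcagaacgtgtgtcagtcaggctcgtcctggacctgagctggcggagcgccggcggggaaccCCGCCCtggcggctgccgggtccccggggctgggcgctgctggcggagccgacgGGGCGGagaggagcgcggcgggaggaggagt
Papss2 downstream start: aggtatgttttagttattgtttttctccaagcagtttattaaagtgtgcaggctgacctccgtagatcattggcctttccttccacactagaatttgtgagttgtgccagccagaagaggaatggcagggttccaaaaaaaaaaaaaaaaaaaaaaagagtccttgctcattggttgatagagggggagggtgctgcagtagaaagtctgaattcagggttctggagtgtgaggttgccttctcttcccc

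The window of B4galt1 held 5 GC boxes, that of B3gnt7 2 GC boxes and 1 E-box, and that of the upstream Papss2 start 2 GC boxes. The window of the downstream Papss2 start held neither motif. A GC box was present in 32.7% and CACGTG in 6.02% of the 32851 windows of the same length in the table. The letters TTCACGC, the core of the binding consensus of the Pax6 paired domain, were searched on both strands as well and stood in none of the 4 windows, nor in the 7 windows of the other members that were read, and in 1.03% of all windows. G and C made up 61.6% of the B3gnt7 window, 66.4% of the B4galt1 window, and 67.6% and 43.2% of the upstream and downstream Papss2 windows, with a median of 52.4% over all windows. The gene counts do not separate the start sites of Papss2. The B3gnt7 window lies downstream of the first annotated base of the gene in GENCODE. On the same annotation the B4galt1 window reaches into the first bases of its gene.

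B3gnt7, the N-acetylglucosaminyltransferase that extends keratan sulfate chains, had the largest log2 fold change of the 9 tested genes. Its level was 14.8, 19.0 and 25.0 CPM in M1, M2 and M3 and 3.86, 2.10 and 0.856 CPM in W1, W2 and W3. The lowest mutant library was well above the highest wildtype library. B3gnt7 had a log2 fold change of 3.11 ± 0.50 (SE; 95% interval 1.95 to 4.27), which is an 8.62-fold rise (adjusted p = 0.0078, edgeR's quasi-likelihood test). It was 3.73 without W1 and 2.69 without W3. B3gnt7 (ENSMUSG00000079445) lies on the plus strand of chromosome 1, from 86302832 to 86307305. A gene on the opposite strand, Gm28626, shares 520 bases of its exons but had at most 1 count in any library.

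B3gnt2, a broadly acting enzyme of the same reaction that extends poly-lactosamine chains on many glycoproteins, was not called. It measured 3.18, 4.05 and 2.57 CPM in the mutant libraries and 3.46, 4.09 and 5.46 CPM in the wildtype libraries. The groups overlapped, and the log2 fold change of -0.41 had a 95% interval from -1.28 to 0.46. B3gnt2 (ENSMUSG00000051650; chromosome 11, 22759738 to 22860961, minus strand) shares 2737 of its 4180 exon bases with the annotated genes Gm12057 and Gm28048 on the same strand. Both of these had a count of 0 in every library. Read pairs in shared exons can be set aside as ambiguous, so the level of B3gnt2 is uncertain.

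The ratio of B3gnt7 to B3gnt2 counts per kb of exon was higher in every mutant library. It was 4.68, 4.73 and 9.84 in the mutant libraries and 1.13, 0.519 and 0.158 in the wildtype libraries, which did not overlap. On the log2 scale the mean was 2.59 ± 0.61 in mutant and -1.14 ± 1.43 in wildtype corneas (SD, n = 3 each). The exact two-sided permutation p was 0.10, the smallest that 3 against 3 allows, and 0.25 after Benjamini-Hochberg adjustment over the 5 ratios compared. The difference of 3.73 between the means was 2.98 without W3 and 4.39 without W1. Such a ratio does not depend on library scaling, but it rests on the uncertain level of B3gnt2.

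**Figure D1:**
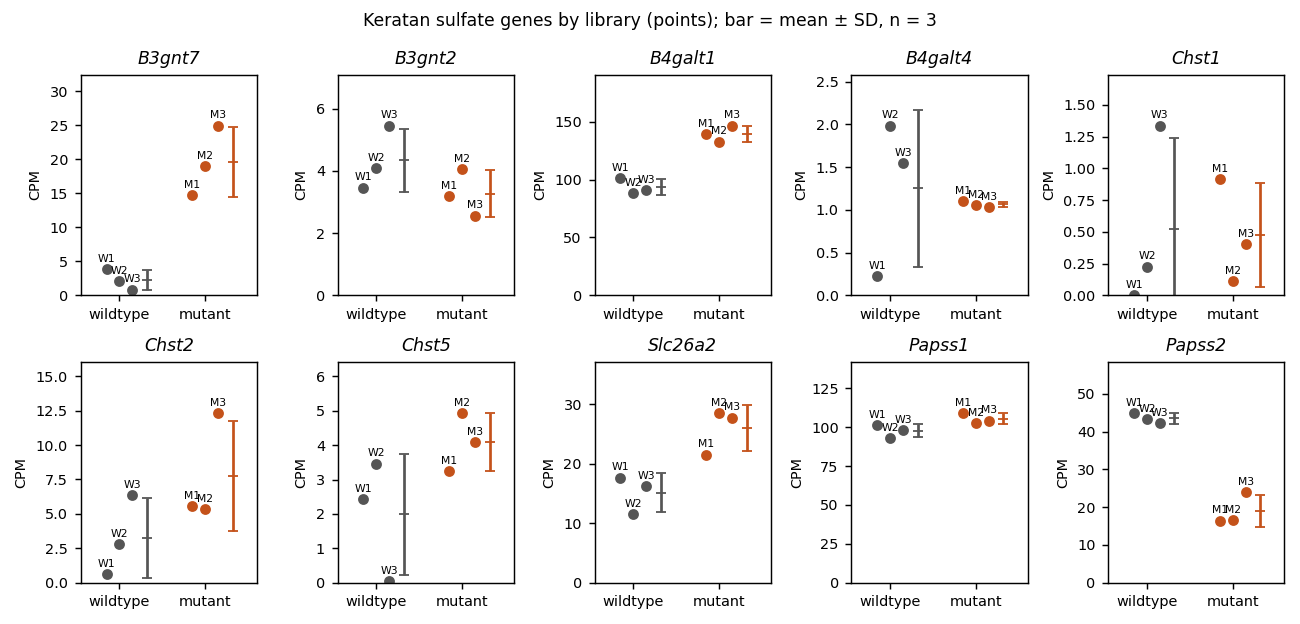
CPM of each of the 10 genes in every library (points; grey wildtype, orange mutant), with the mean and SD of 3 libraries beside them; each panel has its own linear axis from 0, where the lower arm for Chst1 is cut. B3gnt7 lies at 14.8 to 25.0 CPM in mutant and 0.856 to 3.86 CPM in wildtype corneas, Papss2 at 16.5 to 24.0 and 42.2 to 45.0 CPM, and Chst5 has a single wildtype library near 0.

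B4galt1, the widespread galactosyltransferase of N-glycans and poly-lactosamine, rose by a smaller factor. It measured 139, 133 and 147 CPM in M1, M2 and M3 and 101, 88.3 and 90.6 CPM in W1, W2 and W3. Every mutant library was above every wildtype library. The log2 fold change was 0.58 ± 0.11 (SE), a 1.50-fold rise (adjusted p = 0.016, edgeR's quasi-likelihood test). When single libraries were removed, edgeR's adjusted p ranged from 0.0065 without W1 to 0.085 without M3. It exceeded the threshold without M1 (0.053), M2 (0.0501), M3, W2 (0.063) or W3 (0.069), while the log2 fold change stayed between 0.53 and 0.64. B4galt1 (ENSMUSG00000028413) lies on the minus strand of chromosome 4 from 40804602 to 40854005.

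B4galt4, the galactosyltransferase that favours sulfated N-acetylglucosamine as its acceptor, was scarce. Its level was 1.10, 1.05 and 1.04 CPM in the mutant libraries, and 0.227, 1.99 and 1.55 CPM in the wildtype libraries. The mutant libraries fell inside the wildtype range, with 18 to 23 counts each. The wildtype libraries spread from 4 counts in W1 to 35 in W2. The log2 fold change of -0.24 had a 95% interval from -2.06 to 1.58, so no difference was detectable at these counts and this spread. The log2 ratio of B4galt4 to B4galt1 per kb was -6.64 ± 0.10 in mutant and -6.32 ± 1.82 in wildtype libraries (SD, n = 3 each). These groups overlapped (exact permutation p = 1.0, the same after adjustment over the 5 ratios). B4galt4 (ENSMUSG00000022793) lies on chromosome 16 from 38742264 to 38769049, plus strand.

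The sulfotransferases of the chain were all scarce and variable. Chst5 (ENSMUSG00000031952; chromosome 8, 111889136 to 111910447, minus strand), which sulfates N-acetylglucosamine, measured 3.24, 4.94 and 4.10 CPM in the mutant libraries and 2.44, 3.46 and 0.0535 CPM in the wildtype libraries. W3 held a single Chst5 count, against 43 and 61 counts in W1 and W2. For Chst5 the log2 fold change of 1.04 had a 95% interval from -1.14 to 3.23 (adjusted p = 0.57, edgeR's quasi-likelihood test). It was 0.45 without W3.

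Chst2 (ENSMUSG00000033350; chromosome 9, 95399292 to 95406722, minus strand), another N-acetylglucosamine sulfotransferase, stood at 5.57, 5.33 and 12.3 CPM in mutant and 0.624, 2.78 and 6.37 CPM in wildtype libraries. The groups overlapped because W3 was above M1 and M2. For Chst2 the log2 fold change was 1.25 ± 0.73 (SE; 95% interval -0.43 to 2.93) and the adjusted p 0.36 (edgeR's quasi-likelihood test). It was 0.76 without W1 and 2.15 without W3.

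Chst1 (ENSMUSG00000027221; chromosome 2, 92599707 to 92615250, plus strand), which sulfates the galactose of keratan sulfate, was nearly undetected. It had 15, 2 and 9 counts in M1, M2 and M3 and 0, 4 and 25 in W1, W2 and W3. Chst1 did not pass the filter on low counts in the fit of all libraries, so it was not tested there. A count of 0 in W1 allows up to 0.170 CPM (3 counts, counting error only).

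W3 was the wildtype library with the most Chst1 and Chst2 and the fewest Chst5 counts. Its ratio of Chst2 to Chst5 per kb was 35.4, beside 0.0762 and 0.239 in W1 and W2 and 0.321 to 0.897 in the mutant libraries. The difference in the log2 ratio of Chst2 to Chst5 was -0.71 (mutant minus wildtype; exact permutation p = 1.0, the same after adjustment over the 5 ratios) and 1.97 without W3. The difference in the log2 ratio of Chst1 to Chst5 was -3.90 (exact permutation p = 0.60, adjusted over the 5 ratios 1.0). Without W3 that value was 0.39. W1 gave no ratio for this pair, having no Chst1 count.

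Of the genes that supply sulfate, Papss2 fell. Papss2, a PAPS synthase that is prominent in cartilage and other sulfating tissues, measured 16.5, 16.6 and 24.0 CPM in M1, M2 and M3 and 45.0, 43.4 and 42.2 CPM in W1, W2 and W3. The wildtype libraries lay close together, and every mutant library was far below them. Papss2 (ENSMUSG00000024899; chromosome 19, 32595790 to 32667187, plus strand) fell by 1.19 on the log2 scale (± 0.18 SE; 95% interval -1.61 to -0.78). The level was 2.29-fold lower (adjusted p = 0.0058, edgeR's quasi-likelihood test), and this p was the smallest among the 9 tested genes.

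Papss1, the other PAPS synthase, was not called. It measured 109, 103 and 104 CPM in the mutant libraries, and 102, 93.2 and 97.9 CPM in the wildtype libraries. Although the groups did not overlap, the log2 fold change was 0.11 (95% interval -0.13 to 0.35; adjusted p = 0.58, edgeR's quasi-likelihood test). Papss1 (ENSMUSG00000028032) lies on chromosome 3 from 131564768 to 131643671, plus strand.

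Papss2 was a smaller share of the PAPS synthase RNA in every mutant library than in any wildtype library. Per kb of exon it was 11.0%, 11.7% and 15.9% of Papss1 and Papss2 together in M1, M2 and M3 and 26.7%, 27.7% and 26.1% in W1, W2 and W3. The log2 ratio of Papss2 to Papss1 was -2.78 ± 0.33 in mutant and -1.45 ± 0.06 in wildtype corneas (SD, n = 3 each). The exact permutation p was 0.10, the smallest this design allows, and 0.25 adjusted over the 5 ratios. The summed level of both synthases was 119 to 128 CPM in mutant and 137 to 147 CPM in wildtype libraries, again without overlap.

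Slc26a2, the sulfate transporter whose loss in humans causes diastrophic dysplasia, was close to the threshold. Its level was 21.5, 28.6 and 27.8 CPM in the mutant libraries and 17.7, 11.5 and 16.3 CPM in the wildtype libraries, which did not overlap. Its log2 fold change was 0.77 ± 0.21 (SE; 95% interval 0.29 to 1.26), and edgeR's quasi-likelihood test put the adjusted p at 0.057. DESeq2, which called 8.74% of its genes higher, gave an adjusted p of 0.023, and without W1 edgeR gave 0.034. Over the alternatives the adjusted p ranged from 0.011 to 0.20, and 6 of the 16 other fits called it. Slc26a2 (ENSMUSG00000034320) lies on the minus strand of chromosome 18 from 61192919 to 61211612.

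**Figure D2:**
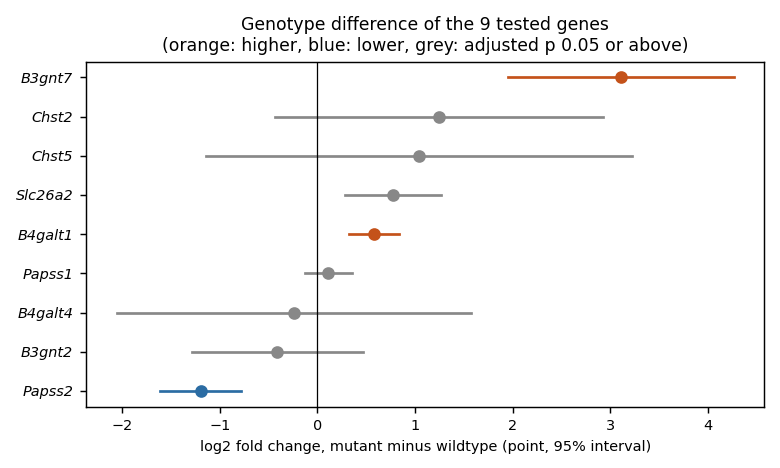
Log2 fold change (mutant minus wildtype) of the 9 tested genes with 95% intervals from edgeR's quasi-likelihood fit; orange marks genes called higher, blue lower and grey those at or above an adjusted p of 0.05. B3gnt7 lies at 3.11, Papss2 at -1.19 and B4galt1 at 0.58, while the intervals of Chst2, Chst5, B4galt4, B3gnt2 and Papss1 include 0.

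**Figure D3:**
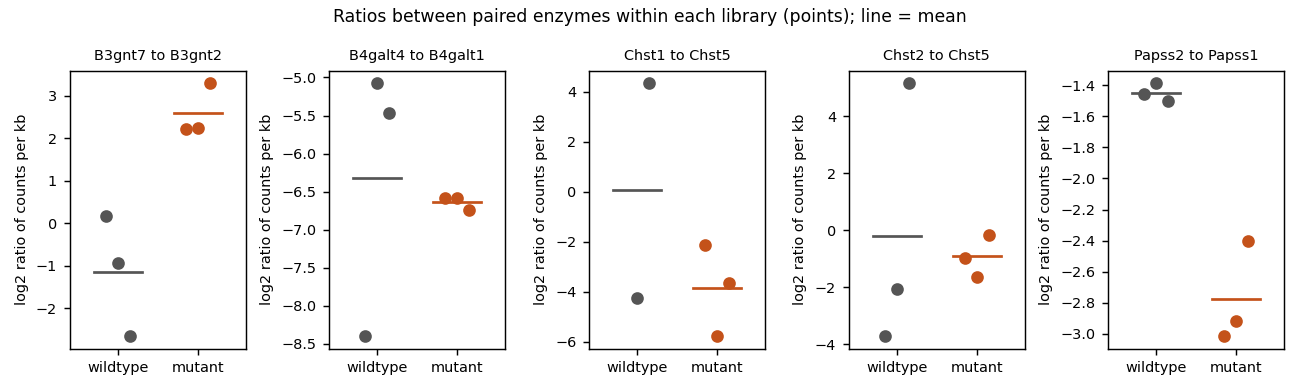
Log2 ratio of counts per kb of exon between paired enzymes in each library (points; grey wildtype, orange mutant), with lines at the means; W1 has no point for Chst1 to Chst5. The groups are apart for B3gnt7 to B3gnt2 (mean 2.59 against -1.14) and Papss2 to Papss1 (-2.78 against -1.45) and overlap for the other pairs.

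Set side by side per kb of exon, the genes spanned a wide range of levels. In mutant corneas the order of the mean CPM per kb was Papss1 (34.5), B4galt1 (33.0), Papss2 (5.11), B3gnt7 (4.73), Slc26a2 (2.10), Chst5 (1.88), Chst2 (1.06), B3gnt2 (0.782), B4galt4 (0.331) and Chst1 (0.178). Libraries of neighbours overlapped for Papss1 and B4galt1, Papss2 and B3gnt7, Slc26a2 and Chst5, Chst5 and Chst2, Chst2 and B3gnt2, and B4galt4 and Chst1. In wildtype corneas Papss1 (31.9), B4galt1 (22.0) and Papss2 (11.7) came first, each apart from the next. The order went on with Slc26a2 (1.23), B3gnt2 (1.04), Chst5 (0.910), B3gnt7 (0.549), Chst2 (0.444), B4galt4 (0.391) and Chst1 (0.195), and in this lower range every gene overlapped with its neighbours. B3gnt7 thus ranked 7 in wildtype and 4 in mutant corneas.

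Markers of keratocytes, the stromal cells that make corneal keratan sulfate proteoglycans, were at higher levels in the mutant libraries. Of 12 keratocyte markers 6 were called higher and none lower (median log2 fold change 2.38), beside 5.59% and 4.46% of all genes tested. The summed level of the 12 was 5084, 2107 and 1157 CPM in M1, M2 and M3 and 398, 578 and 482 CPM in W1, W2 and W3. Col1a1 and Col1a2 were a large part of this sum, at 2704 and 1319 CPM in M1 and 224 and 89.2 CPM in W1. Values per marker count are therefore not values per keratocyte. Of the 12 markers 11 had a log2 fold change above 0, while Pdgfra was at -0.19. Thy1 was at 0 in W1 and no other marker was at 0 in any library. Within the mutants B3gnt7 ran the other way: M1 had the highest keratocyte sum and the lowest B3gnt7, M3 the lowest sum and the highest B3gnt7. Per 1000 keratocyte marker counts there were 2.90, 9.01 and 21.6 B3gnt7 counts in M1, M2 and M3 and 9.71, 3.64 and 1.78 in W1, W2 and W3, which overlapped (exact permutation p = 0.50, adjusted over 20 values 0.59). On the same scale Papss2 had 3.24, 7.87 and 20.7 counts in the mutant libraries and 113, 75.2 and 87.5 in the wildtype libraries, an 8.66-fold lower mean without overlap (exact permutation p = 0.10, adjusted over 20 values 0.20). The log2 ratio of these means was -3.12, and -4.05 without M3. The part of stromal RNA in these results was not tested further.

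Of 10 corneal epithelium markers 5 were called lower (Upk1b, Dsg1a, Krt12, Slurp1 and Dsp) and Krt14 higher, beside 4.46% and 5.59% of all genes tested. The summed level of the 10 was 21170 to 25500 CPM in mutant and 38420 to 55630 CPM in wildtype libraries. The other 4 genes of the list were not called, with log2 fold changes of -0.59 for Krt5, 0.06 for Cdh1, -0.03 for Epcam and 0.03 for Trp63, and the median of all 10 was -0.73. Most of the sum was Krt12, Krt5 and Dsp, at 4402, 6518 and 7619 CPM in M1 and 21770, 13100 and 18050 CPM in W1. Values per marker count therefore move with Krt12 and Dsp, which fell, and are not values per epithelial cell. Per 1000 counts of the epithelial markers, Papss2 had 0.778, 0.651 and 1.10 counts in M1, M2 and M3 and 0.809, 1.01 and 1.10 in W1, W2 and W3, which overlapped (exact permutation p = 0.50, adjusted over 20 values 0.59). B3gnt7 on this scale was 0.697 to 1.15 in mutant and 0.0223 to 0.0694 in wildtype libraries, an 18.4-fold difference of the means without overlap (exact permutation p = 0.10, adjusted over 20 values 0.20). The part of the epithelial markers in the Papss2 result was not tested further.

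RNA of other cell types also differed. Of 12 leukocyte markers 11 were tested and 7 were higher, beside 5.59% higher and 4.46% lower among all genes tested. The 12 summed to 208 to 254 CPM in mutant and 48.3 to 69.5 CPM in wildtype libraries, with 2 markers at 0 in W1 and 1 in W2. Itgam was a large part of this sum, at 82.6 to 103.2 CPM in mutant and 23.75 to 42.8 CPM in wildtype libraries. It shares 3450 of its 5024 exon bases with the annotated gene Gm49368 on the same strand, so its counts are uncertain. Of 10 conjunctival and goblet markers 8 were tested and 6 were higher: Krt13, Krt19, Krt7, Krt4, Agr2 and Muc5ac. The 10 summed to 6220 to 7652 CPM in mutant and 378 to 674 CPM in wildtype libraries. Muc5ac stood at 9.855, 119 and 288 CPM in M1, M2 and M3 and at 6.41, 1.82 and 2.57 CPM in W1, W2 and W3. The goblet cell regulator Spdef, at 0 in M1, W2 and W3, had too few counts to be tested, and so had Tff1. The summed corneal endothelial markers, of which none of 6 was called, were 126 to 168 CPM in mutant and 38.8 to 121 CPM in wildtype libraries. None of the 9 vascular and lymphatic markers nor of the 4 tested Schwann cell markers was called. The part of these cell types in the values of the 10 genes was not tested.

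**Figure D4:**
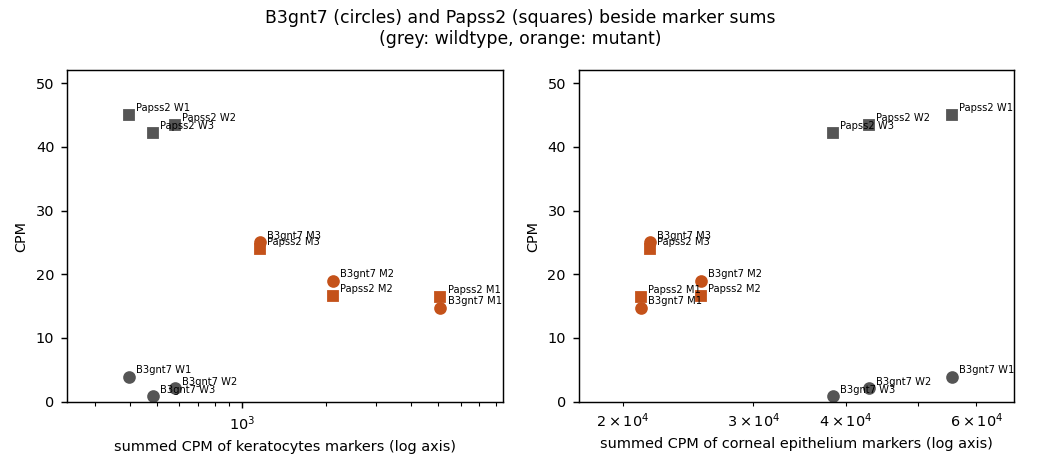
CPM of B3gnt7 (circles) and Papss2 (squares) in each library against the summed CPM of keratocyte markers (left) and corneal epithelium markers (right), on a linear y axis and log x axes; grey is wildtype and orange mutant. Among mutant libraries B3gnt7 goes from 14.8 CPM at the highest keratocyte sum to 25.0 CPM at the lowest, and all Papss2 values of mutant libraries lie below those of wildtype libraries.

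By the likeness of its profile over the 6 libraries, the gene nearest to Papss2 was the glycine cleavage enzyme Gldc. It differed from Papss2 by 0.11 log2 units (root mean square of centred log2 CPM). Next came the sterol reductase Tm7sf2 (0.12), the apoptosis inhibitor Bcl2 (0.12), the mucin-type glycosyltransferase Galnt4 (0.14) and the volume-regulated anion channel subunit Lrrc8e (0.15). Their log2 fold changes were -1.08, -1.20, -1.10, -1.10 and -1.04, close to the -1.19 of Papss2. These 5 genes were chosen for this likeness, so the values are a description.

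Further lists covered keratan sulfate core proteins, related chain enzymes, sugar and sulfate supply, and sulfotransferases of other pathways. Of 111 genes in these 10 lists 86 were tested, and 8 rose and 6 fell, beside 5.59% higher and 4.46% lower among all genes tested. Their median log2 fold change was 0.25. Without W1, 10 rose and 5 fell. Among the core proteins that carry keratan sulfate, fibromodulin (Fmod) rose, with a log2 fold change of 2.60 ± 0.53, and so did Prelp, with 1.99 ± 0.43 (± SE). None of the 6 tested core protein genes fell. Lumican (Lum) stood at 80.4, 37.2 and 17.3 CPM in mutant and 5.05, 18.1 and 3.85 CPM in wildtype libraries, and keratocan (Kera) at 59.4, 25.9 and 4.32 CPM against 8.68, 4.20 and 3.26 CPM. Both overlapped between genotypes and were not called (adjusted p by edgeR 0.078 and 0.10). Fmod, Prelp, Lum, Kera and Omd were each highest in M1 and lowest in M3, as the keratocyte sum was, whereas Ogn stood at 25.6, 12.9 and 13.6 CPM in M1, M2 and M3. Lum and Kera are also keratocyte markers here. Prelp shares 350 exon bases with a gene on the opposite strand, so its counts are uncertain.

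A list of poly-lactosamine extension and capping genes also held related glycosyltransferases that do not act mainly on keratan sulfate, St3gal1 and B4galt7 among them. Of its 14 tested genes 1 rose and 1 fell, beside 5.59% higher and 4.46% lower among all genes tested. St3gal1, a sialyltransferase that adds sialic acid to galactose, measured 44.9, 67.5 and 44.4 CPM in mutant and 15.8, 13.4 and 17.9 CPM in wildtype libraries, a 3.33-fold rise (adjusted p = 0.0024 by edgeR). Mgat1, which starts the complex N-glycans that bear corneal keratan sulfate, fell by 0.56 on the log2 scale. A list of sulfate and PAPS handling genes also held the sulfatase modifying factors Sumf1 and Sumf2. Of its 8 tested genes only Slc35b3, a PAPS transporter of the Golgi, was called. It measured 8.998, 10.8 and 8.46 CPM in mutant and 17.6, 15.6 and 18.3 CPM in wildtype libraries, and its log2 fold change was -0.87 ± 0.20 (SE; adjusted p = 0.029 by edgeR). A gene on the opposite strand shares 257 of its exon bases. The other Golgi PAPS transporter, Slc35b2, was at 14.7 to 17.5 CPM in mutant and 13.5 to 16.1 CPM in wildtype libraries, which overlapped.

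Of 11 genes of UDP-sugar supply 1 rose and none fell, beside 5.59% higher and 4.46% lower among all genes tested. Gfpt1, the rate-limiting enzyme of the hexosamine pathway, rose 1.92-fold (adjusted p = 0.0096 by edgeR). It measured 633, 693 and 807 CPM in mutant and 437, 325 and 346 CPM in wildtype libraries. Most of these calls were not kept in every fit with 1 library fewer, which also weakens the test. With 1 library left out, the calls of Mgat1 and Slc35b3 were lost in 5 of 6 fits, of Prelp in 4, of Fmod in 3 and of Gfpt1 in 1 (without M3), and that of St3gal1 in none. Their highest adjusted p by edgeR in those fits was 0.13.

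**Figure D5:**
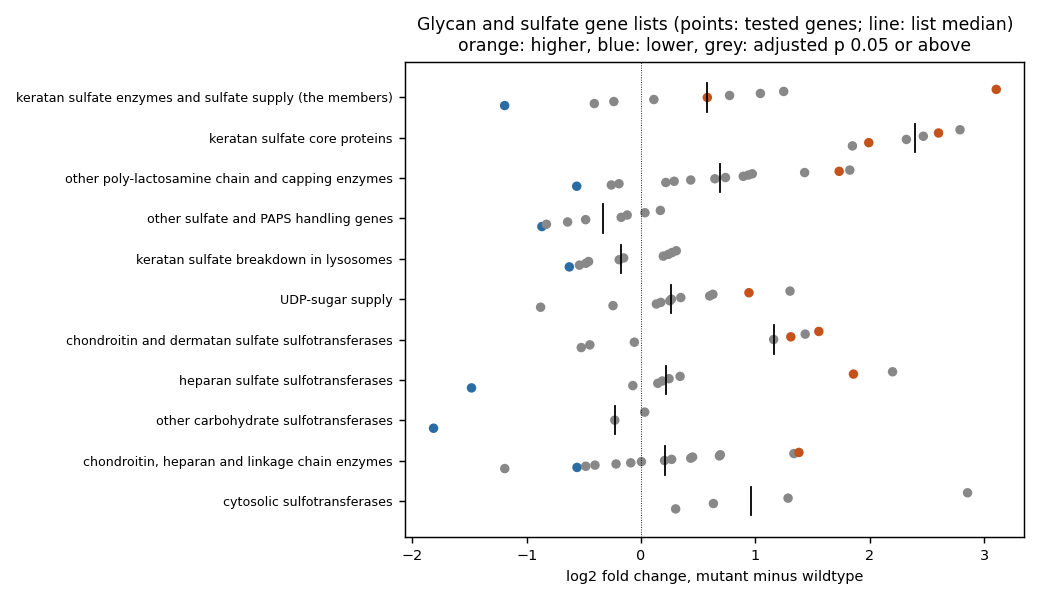
Log2 fold change (mutant minus wildtype) of every tested gene in the keratan sulfate set and 10 further lists (points; orange called higher, blue lower, grey neither), with a line at each list's median. The keratan sulfate set runs from -1.19 to 3.11, and the core proteins have a median of 2.40.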

How the data were processed

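Counts per Ensembl gene were deposited by the authors as 1 file per library, raw and without normalization; per the submitters' processing notes they were made with Trim Galore, HISAT2, SAMtools and HTSeq on GRCm38, with edgeR also named. Tool versions and strand setting: not given in the sources used here. Per the labels' protocols, a stranded total RNA kit for small inputs and paired reads were used. Neither library sizes nor tests include the 5 summary lines, which held 30.1% (unaligned), 16.3% (outside features), 3.50% (several alignments), 2.75% (low quality) and 0.679% (ambiguous) of the deposited counts. Names, exons and lengths came from GENCODE M21 (55240 of 55421 IDs matched), start-site windows from RefSeq (GRCm38.p6; 9 of 10 genes matched).

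After filterByExpr at a minimum count of 10 and a total of 15, genes were scaled by TMM and tested with edgeR 4.0.16 in R 4.3.3 by the quasi-likelihood test with Benjamini-Hochberg adjustment over all 15209 genes at 0.05. The fit was tested on simulated data. Ratios and values per marker sum were compared with exact two-sided permutation tests (scipy 1.17.1). Likeness used log2 of CPM plus 0.5 among tested genes with official symbols and a mean of at least 5 CPM. Alternatives were RLE, upper-quartile and no factors, DESeq2 1.42.0, limma-voom (3.58.1) with and without quality weights, other filters, removal of mitochondrial and structural RNA, a threshold of 0.01, and leaving out libraries. The members and lists were chosen with earlier results of these data known. All 10 members, Pax6, the genes called in each list (except 1 that is not reported here) and the 5 nearest profiles were named by rule; Lum, Kera, Ogn, Omd, Slc35b2, Thy1, Spdef and the named epithelial markers were added after their values were seen.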

Additional observations from a re-analysis of the deposited data

How the results depend on the processing

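B3gnt7 and Papss2 kept their direction and call in all 16 other fits, with log2 fold changes of 2.69 to 3.88 and -1.41 to -1.09, and at an adjusted p of 0.01. The number of the 10 genes called higher was 1 at an adjusted p of 0.01 and 1 to 3 with 1 library left out; fewer libraries weaken the test, and W1 was the library whose removal raised the count. Among the 10 further lists, 17 genes were higher without the low-count filter, 2 at an adjusted p of 0.01 and 3 to 10 with 1 library left out. In those lists 1 gene was lower at an adjusted p of 0.01, and 1 to 5 with 1 library left out. Several values changed sign, with no call in either setting. The log2 fold change of B4galt4 was 0.20 by limma-voom and ranged from -0.73 to 0.25 with 1 library left out (0.25 without W2), and the log2 ratio of B4galt4 to B4galt1 (mutant minus wildtype) ranged from -1.36 to 0.30 with 1 library left out, being 0.30 without W2 and 0.10 without W3. Likewise that of Chst1 to Chst5 ranged from -8.19 to 0.39 and that of Chst2 to Chst5 from -2.46 to 1.97. The log2 ratio of the Chst2 means per keratocyte sum ranged from -1.85 to 0.58 (0.014 without M1), and that of the Chst1 means per epithelial sum from -0.22 to 3.07. The cause was not tested. At 0 to 25 counts per library, depth limits Chst1 most. No paired analysis was possible because the labels give the genotypes no shared replicate numbers.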

Other observations

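Some sulfotransferases and chain enzymes of other glycosaminoglycans were called. Hs3st3b1, a heparan sulfate 3-O-sulfotransferase, measured 18.3, 23.1 and 21.3 CPM in M1, M2 and M3 and 53.6, 58.4 and 63.4 CPM in W1, W2 and W3. Its level fell by 1.48 on the log2 scale (± 0.14 SE; adjusted p = 0.0010 by edgeR), and the call was kept in each of 6 fits with 1 library left out. Hs3st1, an enzyme of the same reaction, rose by 1.86 ± 0.37, from 3.18 ± 0.373 CPM to 11.5 ± 5.25 CPM (SD, n = 3 each), and its call was lost in 3 of those 6 fits.

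A list of chondroitin and dermatan sulfate sulfotransferases also held the epimerases Dse and Dsel. Of its 7 tested genes 2 rose and none fell, beside 5.59% higher and 4.46% lower among all genes tested. Chst11, which sulfates chondroitin, measured 16.3, 10.8 and 15.1 CPM in mutant and 5.11, 5.34 and 3.90 CPM in wildtype libraries, a 2.94-fold rise (adjusted p = 0.010 by edgeR). Ust, the uronyl 2-O-sulfotransferase, rose 2.48-fold (adjusted p = 0.012 by edgeR). Both calls were lost without M1 or without M3. The chondroitin polymerising factor Chpf rose by 1.38 ± 0.28 on the log2 scale (± SE), and its call was lost in 3 fits. Gal3st1, the sulfotransferase of sulfatide synthesis, and Extl3, an enzyme of heparan sulfate initiation, fell by 1.81 and 0.56 on the log2 scale, with the calls lost in 5 and 6 of the 6 fits.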
